A study of Mus musculus with 4 samples.

Results

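The mitochondrial ribosomal protein genes were followed in RNA-seq libraries of sorted mouse thymic iNKT cells, from Prmt5 knockout (KO) mice and their controls. The genes were taken by symbol, as every gene named Mrpl or Mrps with a number and at most 1 further letter, plus Dap3, which gave 78 of the 46517 genes in the table. Of the 4 libraries, 2 were labelled Prmt5 KO and 2 Control. Prmt5 KO cells were Prmt5 flox/D with Cd4-Cre, a Cre recombinase made in developing T cells. The Control label names both Prmt5 flox/D and Prmt5 flox/+ Cd4-Cre, and does not say which library was which, so a Control may carry Cre with 1 intact allele or no Cre. All cells came from C57BL/6J thymus and were sorted as stage 1 iNKT cells (CD24-NK1.1-T-bet-), the early stage of this innate-like T cell lineage. The labels state no age.

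The mitochondrial ribosome translates the few messages encoded in mitochondrial DNA, all of which are for subunits of the respiratory chain and ATP synthase. Its ribosomal RNAs come from mitochondrial DNA, whereas its proteins are encoded in the nucleus, made in the cytosol and imported. Some of these proteins descend from bacterial ribosomal proteins and others are found only in mitochondria. PRMT5 adds symmetric dimethyl groups to arginines, among others in the Sm proteins of the spliceosome. Reads in introns were therefore described here beside reads in exons.

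By their known place in the ribosome, 50 of the genes encode large subunit proteins, 29 listed with a bacterial relative and 21 as specific to mitochondria. Another 27 encode small subunit proteins, 16 listed with a bacterial relative and 11 as specific to mitochondria. The symbols do not always follow the structure. Mrps18a and Mrps30 are counted here with the large subunit, where their proteins lie in the mammalian ribosome, and Mrps36, the 1 remaining gene, encodes a component of the 2-oxoglutarate dehydrogenase complex. The genes lie on 17 chromosomes, with 10 on chromosome 11 and 8 on chromosome 17. They span 827 to 121773 bases, with a median of 7733.5. In the GENCODE M21 annotation, 17 of the 78 (21.8%) had the start of a protein-coding gene on the opposite strand within 500 bases of their own, against 6.16% of all 21951 protein-coding genes. In 40 of the 78 the span overlapped another gene model of the table. The library kit does not mark strand, so reads in the shared stretches of such pairs cannot be told apart. Values of overlapping genes are uncertain to that extent, whether or not the overlap is named below. Among those where it is not, Mrpl18 shares 645 bases with Tcp1, Mrps30 623 with B430218F22Rik and Mrpl45 162 with Gm11594. Mrps22 shares 1256 bases with Gm37637, Mrps18b 1837 with Gm16279 and Mrps18c 2297 with RP23-7M16.1.

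Promoter sequences from RefSeq (GRCm38.p6, the build called mm10) were available for 68 of the 78 genes, as windows of 250 bases before to 50 after the transcription start. They were searched on both strands for 3 motifs known from promoters of mitochondrial genes: GCGC and TGCGC with 1 base between, bound by nuclear respiratory factor 1 (NRF1), CCGGAAGT, bound by ETS family factors such as GABP, and AAGATGGCG, bound by YY1. The NRF1 letters stood in 13 windows (19.1%, against 6.85% of the 16522 windows of protein-coding genes), the ETS letters in 11 (16.2% against 5.52%) and the YY1 letters in 8 (11.8% against 2.05%). At least 1 of the motifs was present in 30 windows (44.1% against 13.5%), at a median GC content of 58.2% against 57%. In the 2 families most like the set, the NRF1 letters stood in 24.2% of windows of nuclear oxidative phosphorylation genes and 7.94% of cytosolic ribosomal protein genes, the ETS letters in 7.58% and 19.05% and the YY1 letters in 9.09% and 6.35%, in the same order. These are matches of letters and say nothing of binding in these cells. The windows of 4 genes to which the results below return are printed 5′ to 3′ on the gene's strand, with the motif in capitals. Mrpl12, chosen for its role in the stalk of the large subunit, lies on the plus strand (chr11:120484387-120484686) and holds an NRF1 match that begins at position -81 from the start. Mrpl45, at chr11:97315466-97315765 on the plus strand, holds NRF1 matches and was the only gene of the intron test below with a lower intron share in both Prmt5 KO libraries than in both Control libraries. Mrpl52, at chr14:54426659-54426958 on the plus strand, had the largest positive difference in intron share and holds an ETS match on the opposite strand that begins 1 base after the start. Mrpl42, at chr10:95501900-95502199 on the minus strand, had lower exon and higher intron values in both Prmt5 KO libraries and holds a YY1 match that begins 27 bases after the start.
Mrpl12: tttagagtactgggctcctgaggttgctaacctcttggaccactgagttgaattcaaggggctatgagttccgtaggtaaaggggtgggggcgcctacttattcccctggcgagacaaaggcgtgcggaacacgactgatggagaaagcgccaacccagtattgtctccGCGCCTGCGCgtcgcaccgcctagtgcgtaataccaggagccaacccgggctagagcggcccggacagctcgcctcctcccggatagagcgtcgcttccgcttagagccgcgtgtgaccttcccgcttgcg
Mrpl45: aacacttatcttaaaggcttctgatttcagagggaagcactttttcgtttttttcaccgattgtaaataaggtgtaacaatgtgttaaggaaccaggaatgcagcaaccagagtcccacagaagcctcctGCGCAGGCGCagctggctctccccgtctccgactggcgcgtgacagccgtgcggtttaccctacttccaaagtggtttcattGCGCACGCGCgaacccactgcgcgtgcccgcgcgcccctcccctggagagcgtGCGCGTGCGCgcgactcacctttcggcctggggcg
Mrpl52: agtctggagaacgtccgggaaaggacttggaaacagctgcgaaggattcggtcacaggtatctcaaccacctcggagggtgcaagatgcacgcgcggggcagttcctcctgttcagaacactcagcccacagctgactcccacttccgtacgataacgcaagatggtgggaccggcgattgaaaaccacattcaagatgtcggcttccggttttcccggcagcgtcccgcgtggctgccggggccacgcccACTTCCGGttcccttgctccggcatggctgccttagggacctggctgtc
Mrpl42: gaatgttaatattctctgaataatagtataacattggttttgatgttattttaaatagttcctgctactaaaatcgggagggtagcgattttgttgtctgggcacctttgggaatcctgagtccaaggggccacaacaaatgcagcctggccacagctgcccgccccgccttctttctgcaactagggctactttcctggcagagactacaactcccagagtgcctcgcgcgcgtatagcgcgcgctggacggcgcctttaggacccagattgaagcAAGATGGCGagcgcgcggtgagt

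The Prmt5 KO libraries held 11674023 and 4536094 unique exon reads and the Control libraries 4817807 and 3886087. A single read was therefore worth 0.0781 and 0.229 CPM in Prmt5 KO (counts for every 1000000 exon reads, after TMM scaling), against 0.205 and 0.275 in Control. Prmt5 itself had a level of 99.9 and 138 CPM in Prmt5 KO libraries, against 114 and 117 in Control (log2 fold change 0.05 ± 0.32 SE, adjusted p = 0.991, edgeR). The table gives reads per gene and not per exon, so this does not check the deletion. Summed over 8 T cell and iNKT markers, the level was 5967 to 7866 CPM in Prmt5 KO and 7421 to 8541 in Control, with all 8 detected. Summed over 5 genes, myeloid markers were at 9.40 to 16.5 CPM in Prmt5 KO and 1.37 to 2.05 in Control, with Lyz2 and Adgre1 at 0 in every library. Markers of thymic epithelium (4 genes, Krt5 at 0) summed to 6.64 to 9.17 CPM in Prmt5 KO and 0 to 2.87 in Control, double-positive thymocyte markers (5 genes, Rag1 and Ptcra at 0) to 0.688 to 17.3 in Prmt5 KO and 6.15 to 13.5 in Control, NK cell markers (4 genes, Ncr1 at 0) to 1.25 to 4.81 in Prmt5 KO and 0.550 to 1.84 in Control, and erythroid markers (5 genes, Hbb-bs, Hbb-bt and Alas2 at 0) to 0.0781 to 0.917 in Prmt5 KO and 0 in Control. The part of these cells in the results below was not tested. Fewer cells of a type and less RNA per cell cannot be told apart in such libraries. Whether each library is from its own mouse is not stated, so p-values reflect how much these 4 libraries vary, for whatever reason, technical ones included.

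All 78 genes had unique exon reads in at least 1 library, at very unequal levels. Compared per length, as unique exon reads per kb of exon for every 1000000 reads (RPKM, computed here) and averaged over the 4 libraries, they had a median level of 36.8, with 10 genes above 100 and 10 below 10. Those below 10 include Mrpl23 at 0.493 and Mrpl17 at 7.35 RPKM. Of their exon reads 1.33% and 41.3% were unique, so these levels may be too low. The highest was Mrps21, a small subunit protein related to bacterial S21, at a mean of 212 RPKM. Next came Mrpl42 at 164, Mrps16 at 154, Mrpl36 at 153, Mrpl18 at 137, Mrpl34 at 131, Mrpl54 at 109 and Mrps28 at 107 RPKM. Several of these 8 encode very small proteins, and the exon length used here is that of all annotated transcripts joined, so a gene with a long rare isoform is given too low a level. Neighbours in this order overlapped widely. Mrps21 was at 124 and 235 RPKM in Prmt5 KO and 224 and 265 in Control, Mrpl42 at 101 and 147 RPKM in Prmt5 KO and 153 and 256 in Control, and Mrpl36 at 87.7 and 206 RPKM in Prmt5 KO and 137 and 180.2 in Control, so the spread over libraries exceeded the steps between these genes. The lowest tested gene, Mrps35, a small subunit protein specific to mitochondria, was at 4.97 RPKM, which is 42.7-fold below Mrps21. Mrpl23 and Mrpl53 were not tested, since 1.33% and 0.699% of their exon reads were unique. Their total exon reads, which are shared with other loci, were 822 and 487 in Prmt5 KO and 150 and 264 in Control for Mrpl23, and 160 and 130 in Prmt5 KO and 116 and 166 in Control for Mrpl53.

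The first comparison asked whether exon levels of the set differed between Prmt5 KO and Control cells. Together, the 78 genes took 5220.1 and 6671 of every 1000000 unique exon reads in Prmt5 KO and 6233 and 7430.1 in Control. The Prmt5 KO libraries included the lowest of the 4 values, but the groups overlapped. The means were 5946 ± 1026 in Prmt5 KO and 6831 ± 847 in Control (SD, n = 2 each), a difference of -886 that did not exceed the spread between libraries (two-sided exact permutation test, p = 0.667, where 0.333 is the smallest value that 2 against 2 libraries allow). The balance of the subunits varied by a few percent: the large subunit took 61.2% and 62.3% of the set's summed CPM in Prmt5 KO and 62.8% and 63.6% in Control, and the small subunit 37.0% and 36.0% in Prmt5 KO and 35.7% and 35.0% in Control.

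**Figure D1:**
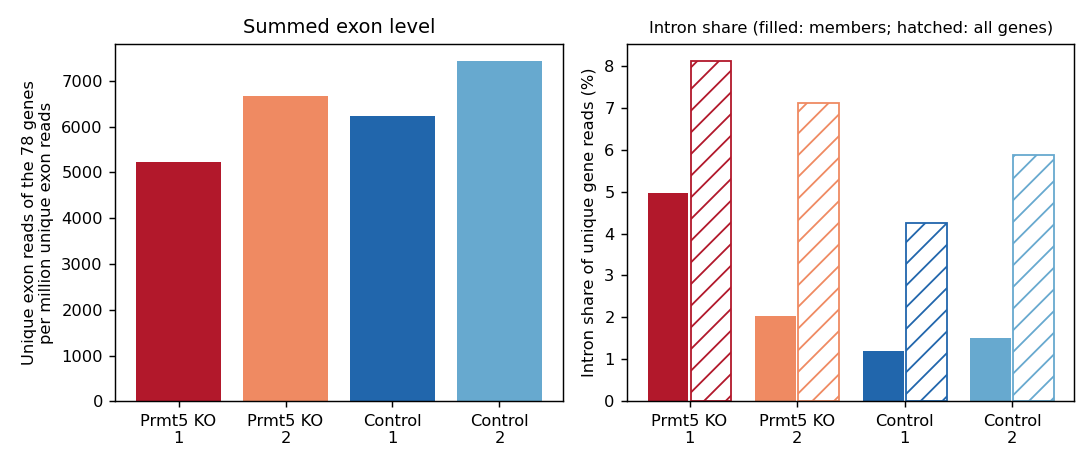
Left, summed unique exon reads of the 78 genes for every 1000000 unique exon reads in each library. Right, intron share of the same genes (filled bars) and of all genes (hatched bars), in percent. Prmt5 KO 1 is lowest in the left panel, at 5220.1, and highest in the right one, at 4.97%.

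Gene by gene, 76 of the 78 could be tested and 0 passed an adjusted p of 0.05, in a background of 1 call among 10438 genes (0.00958%, edgeR quasi-likelihood test with Benjamini-Hochberg adjustment). At an unadjusted p under 0.05 the set had 5 genes, all lower in Prmt5 KO (6.58%, against 3.92% of all genes lower and 8.56% in either direction). DESeq2 called 0 of the 76, beside 171 of all genes (1.64%), and limma-voom 0, beside 12 of all genes (0.115%). The median log2 fold change of the set was -0.23, with 63 of 76 values negative (82.9%), beside a median of -0.01 and 50.4% negative over all tested genes. Both Prmt5 KO libraries were below both Control libraries in 24 genes (31.6%, against 19.3% of all genes) and above both in 1 (1.32%, against 20.4%). Large and small subunit genes had medians of -0.25 (42 of 48 negative) and -0.21 (21 of 27 negative).

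The size of this shift depended on single libraries, Prmt5 KO 1 at the low end and Control 2 at the high end. Prmt5 KO 1, the most deeply sequenced, was the lowest of the 4 libraries for 57 of the 76 genes (75%), whereas it was lowest for 24.0% of all tested genes. Relative to each gene's mean over the 4 libraries, the median gene stood at -0.41 and 0.14 in Prmt5 KO and at -0.02 and 0.33 in Control on the log2 scale. Control 2 was the highest library for 44 genes and Prmt5 KO 2 for 24. Without Prmt5 KO 1 the median log2 fold change of the set was -0.0067, with 37 values positive and 39 negative, and without Prmt5 KO 2 it was -0.56, with 73 of 76 negative. Without Control 2 it was -0.07, with 34 of 77 positive, and without Control 1 it was -0.38.

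**Figure D2:**
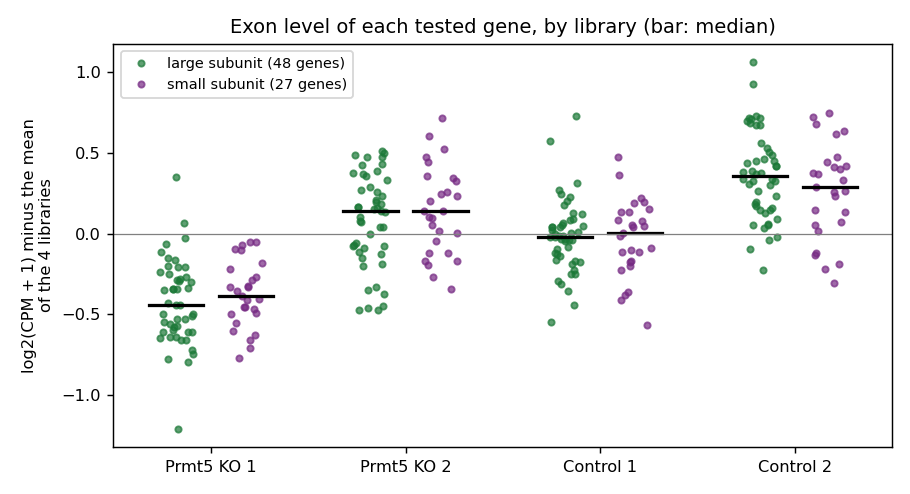
Exon level of each of the 48 large and 27 small subunit genes tested, in each library, as log2(CPM + 1) minus the gene's mean over the 4 libraries. The subunits are drawn apart, each with a bar at its median, and Mrps36 is not drawn. Over all 76 tested genes the medians were -0.41 and 0.14 in Prmt5 KO 1 and 2 and -0.02 and 0.33 in Control 1 and 2.

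Among large subunit genes the widest differences were those of Mrpl17 and Mrpl24, whose proteins have bacterial relatives near the exit of the peptide tunnel. Mrpl17 was at 10.5 and 18.6 CPM in Prmt5 KO, against 43.2 and 49.8 in Control, so that both Prmt5 KO values were well under both Control values. Its log2 fold change was -1.69 ± 0.47 (SE, adjusted p = 0.340, edgeR), and it was -1.57 on total exon reads, of which 41.3% were unique. The whole gene lies inside the span of the gene model Gm15645. Mrpl24 was at 62.7 and 67.6 CPM in Prmt5 KO, against 141 and 132 in Control, and its means of 65.1 ± 3.47 in Prmt5 KO and 136 ± 5.90 in Control (SD, n = 2 each) lay further apart than either pair of replicates (log2 fold change -1.07 ± 0.31, adjusted p = 0.354, edgeR). It shares 1072 bases with Rrnad1. Mrpl19, related to a bacterial protein at the subunit interface, was at 42.9 and 47.9 CPM in Prmt5 KO, against 71.9 and 102 in Control, and Mrpl20, whose bacterial relative acts early in assembly, at 53.8 and 69.2 CPM in Prmt5 KO and 82.4 and 132 in Control. Neither passed the test (adjusted p = 0.490 and 0.603, edgeR), and Mrpl19 shares 2065 bases with Gcfc2. Mrpl12, the stalk protein that recruits translation factors, was at 109 and 143 CPM in Prmt5 KO, against 171 and 222 in Control (log2 fold change -0.64 ± 0.32, adjusted p = 0.650, edgeR), and shares 2244 bases with Gm16755. Mrpl42, a mitochondria-specific protein of the set's upper end, was at 67.2 and 97.9 CPM in Prmt5 KO, against 102 and 170 in Control, with groups that did not overlap by a narrow margin. Mrps30, a large subunit protein despite its symbol, was at 45.6 and 33.5 CPM in Prmt5 KO, against 47.1 and 64.3 in Control.

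In the small subunit, Mrps17 and Mrps24, relatives of bacterial S17 and S3, had the widest lower values. Mrps17 was at 53.3 and 65.3 CPM in Prmt5 KO, against 83.2 and 133 in Control (log2 fold change -0.86 ± 0.36, adjusted p = 0.555, edgeR). Mrps24 was at 46.4 and 65.5 CPM in Prmt5 KO, against 84.4 and 115 in Control (-0.84 ± 0.36, adjusted p = 0.565, edgeR). In both genes the lower Control value stood above the higher Prmt5 KO value, and Mrps24 shares 2264 bases with Urgcp. Mrps12, the relative of the bacterial decoding site protein S12, was nearer to even, at 59.3 and 88.0 CPM in Prmt5 KO and 95.5 and 89.9 in Control. Mrps5 is related to a bacterial protein of the mRNA entry channel. It was the only tested gene of the set with both Prmt5 KO values above both Control values. Its level was 65.7 and 95.1 CPM in Prmt5 KO and 59.03 and 58.3 in Control (log2 fold change 0.45 ± 0.35, adjusted p = 0.800, edgeR), and 78.7% of its exon reads were unique. Dap3, the GTP-binding small subunit protein first described for a part in cell death, was at 200.2 and 237 CPM in Prmt5 KO, against 167 and 271 in Control, so the Prmt5 KO values lay inside the range of the Control values.

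The 3 relatives of bacterial S18 sit in different places of the mammalian ribosome, Mrps18a in the large subunit and Mrps18b and Mrps18c in the small one. Although related to S18, Mrps18a and Mrps18b are listed above among the proteins specific to mitochondria. In none of the 3 did the groups separate. Mrps18a was at 51.9 and 95.8 CPM in Prmt5 KO, against 65.2 and 78.6 in Control, with 62.1% of its exon reads unique. Mrps18b was at 42.2 and 72.6 CPM in Prmt5 KO, against 53.3 and 48.9 in Control, with 65.9% unique. Mrps18c was at 66.0 and 61.4 CPM in Prmt5 KO, against 61.5 and 92.7 in Control. Mrps36, which is not a ribosomal protein, was at 84.7 and 121 CPM in Prmt5 KO, against 90.2 and 111 in Control (log2 fold change 0.03 ± 0.33).

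**Figure D3:**
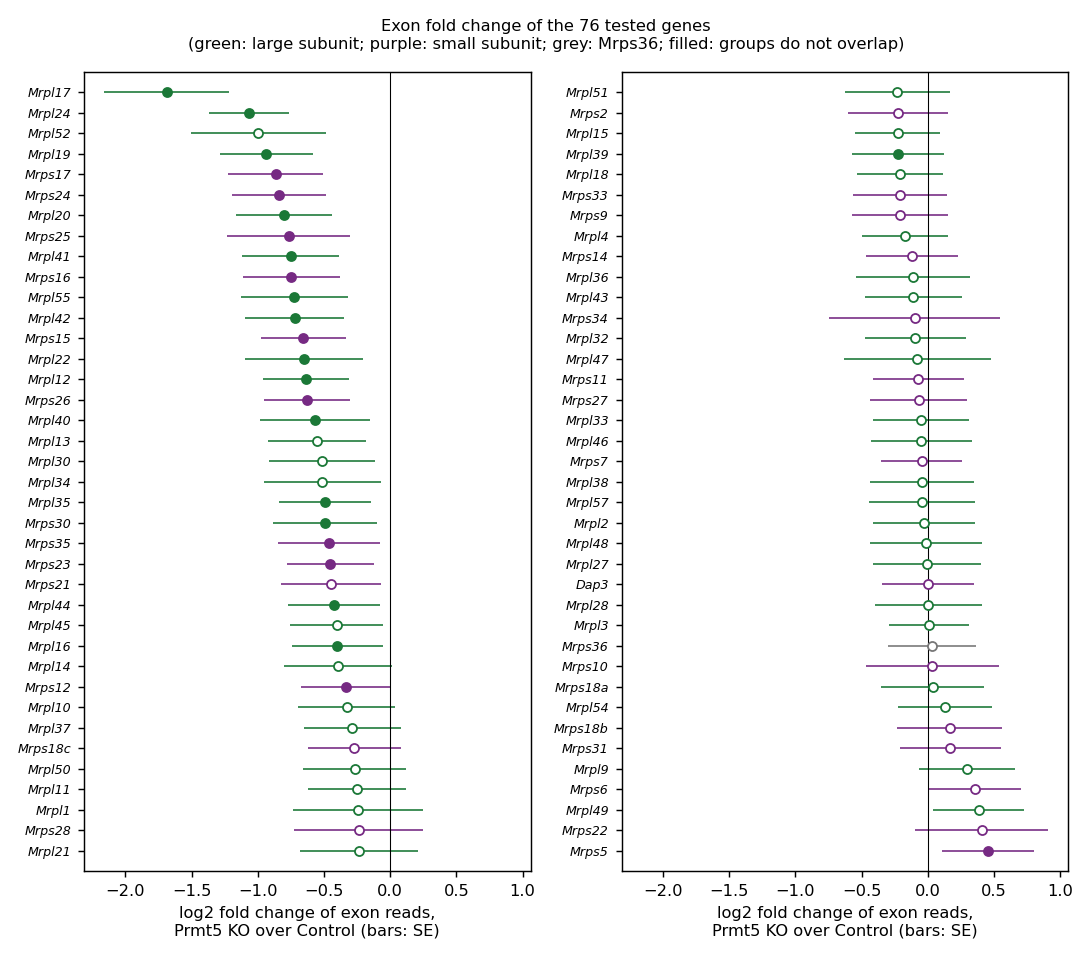
Log2 fold change of exon reads, Prmt5 KO over Control, with its SE, for the 76 tested genes, coloured by subunit and filled where the groups did not overlap. Values run between -1.69 (Mrpl17) and 0.45 (Mrps5), and 63 of 76 are negative.

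The second comparison set reads in introns against reads in exons, a measure of how much unspliced RNA, or other intronic sequence, was captured. Over the 78 genes, the intron share of unique reads was 4.97% (95% Wilson interval 4.80 to 5.14) and 2.03% (1.88 to 2.19) in Prmt5 KO, and 1.21% (1.09 to 1.34) and 1.51% (1.38 to 1.66) in Control. Both Prmt5 KO libraries were above both Control libraries, and the first far above the second. The means were 3.498 ± 2.08% in Prmt5 KO and 1.36 ± 0.212% in Control (SD, n = 2 each), with p = 0.333 in the two-sided exact permutation test, the smallest it can give here. Over all genes the share was 8.11% and 7.11% in Prmt5 KO and 4.25% and 5.86% in Control, so the Prmt5 KO libraries were higher in intron reads as a whole.

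Of the 78 genes, 59 had enough reads for the intron test, at least 20 exon reads in every library and 10 intron reads in all. Of the others, 17 had fewer than 10 unique intron reads, among them Mrpl17 and 4 more with 0, and 2 had too few unique exon reads. The genes at 0, Mrpl17, Mrpl2, Mrpl33, Mrpl40 and Mrps34, lie wholly or almost wholly inside another gene model. Total intron reads of Mrpl17 were 1, in Control 1, but those of Mrpl33 were 81 and 38 in Prmt5 KO and 13 and 10 in Control. A count of 0 unique intron reads in these genes therefore does not show that intronic RNA was absent. Mrps26 with 12 intron reads lay just inside the limit and Mrpl19 with 9 just outside. In the 59, 0 passed an adjusted p of 0.05, as did 0 of all 7400 genes tested (0%, edgeR). At an unadjusted p under 0.05 there were 7, all higher in Prmt5 KO (11.9%, against 6.74% of all genes higher and 6.76% in either direction). The median log2 change of the intron-to-exon ratio was 1.29, with 48 of 59 values positive (81.4%), beside 1.09 and 82.1% over all tested genes. With the 4 genes at 0 in both Control libraries set to their lower bound, the median was also 1.29. It could not move, since their estimates and their bounds both lie above it. Groups did not overlap upwards in 25 genes (42.4%, against 39.2% of all genes) and downwards in 1, Mrpl45 (background 1.95%). Both shares of the set were near those of all genes.

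Here too the libraries differed within the Prmt5 KO group. The median gene of the 59 had an intron share of 4.84% and 1.40% in Prmt5 KO and 0.943% and 0.909% in Control, against 6.80% and 3.90% in Prmt5 KO and 1.78% and 2.94% in Control over all tested genes. Prmt5 KO 1 was above both Control libraries in 47 of the 59 genes (79.7%, against 69.3% of all genes) and Prmt5 KO 2 in 27 (45.8%, against 47.4%). Prmt5 KO 1 was the highest library for 42 (71.2%, against 50.1%). Without Prmt5 KO 1 the median log2 change was 0.54, with 23 of 41 testable genes positive, and without Prmt5 KO 2 it was 2.34, with 55 of 58 positive. Scaling the intron columns on their own lowered the median to 0.39 for the set (38 of 59 positive) and to 0.19 for all genes. Across the 59 genes the intron change had a Spearman correlation of 0.27 with the number of intron bases and of 0.0051 with the exon fold change, as descriptions over genes that share the same libraries.

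**Figure D4:**
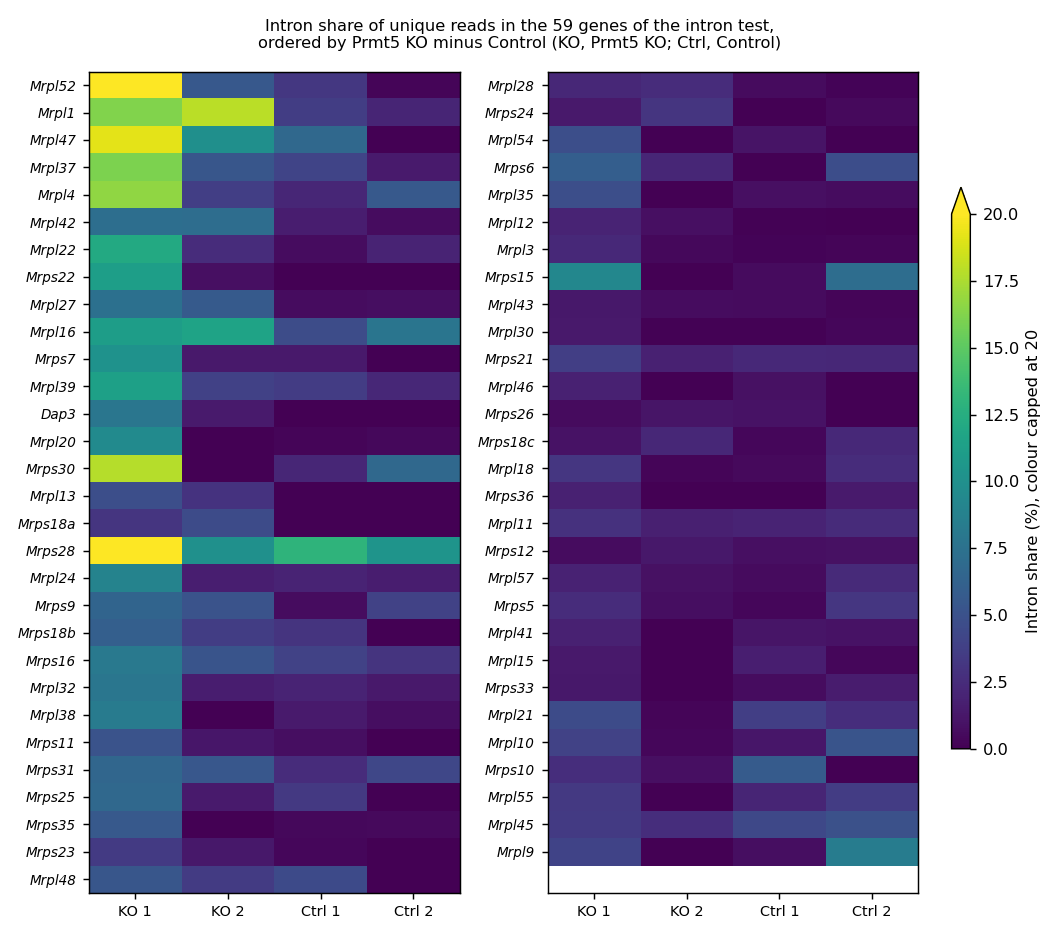
Intron share of unique reads, in percent, for the 59 genes of the intron test (rows, ordered by the Prmt5 KO minus Control difference) in each library (columns). Most rows are highest in Prmt5 KO 1, as 42 of the 59 genes are, and Mrpl45 is the gene lower in both Prmt5 KO libraries than in both Control libraries.

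Of the genes whose groups did not overlap, Mrpl52, a mitochondria-specific large subunit protein that overlaps no other gene model, had the largest difference. Its intron share was 28.1% (24.0 to 32.5) and 5.49% (3.01 to 9.82) in Prmt5 KO and 3.21% (1.48 to 6.82) and 0.309% (0.0545 to 1.73) in Control, so the second Prmt5 KO value lies within the interval of the first Control value. Mrpl1, the protein of the movable L1 stalk near the tRNA exit, also without an overlapping model, was the more even case. It had 16.2% (13.2 to 19.7) and 17.9% (13.6 to 23.3) in Prmt5 KO, against 3.62% (1.56 to 8.20) and 2.07% (0.889 to 4.76) in Control, and no Prmt5 KO interval met a Control interval. Its log2 change was 2.85 ± 1.39 (SE, adjusted p = 0.721, edgeR). Mrpl42 had the same order at lower shares, with 7.22% (5.73 to 9.07) and 7.17% (5.15 to 9.90) in Prmt5 KO and 1.59% (0.806 to 3.10) and 0.641% (0.250 to 1.64) in Control (log2 change 2.87 ± 1.27, adjusted p = 0.717, edgeR). Mrpl27, the relative of a bacterial protein beside the peptidyl transferase centre, had 7.35% (5.55 to 9.66) and 5.69% (3.82 to 8.398) in Prmt5 KO, against 0.692% (0.190 to 2.49) and 0.738% (0.203 to 2.65) in Control, and shares 198 bases with Eme1.

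In 3 further genes of this group the first Prmt5 KO library had the highest share. Mrpl37 had 16.1% (13.8 to 18.6) and 5.34% (3.01 to 9.31) in Prmt5 KO and 4.12% (2.51 to 6.69) and 1.44% (0.492 to 4.15) in Control. Mrpl22, which lines the exit tunnel, had 12.1% (9.30 to 15.7) and 2.56% (0.876 to 7.27) in Prmt5 KO and 0.658% (0.116 to 3.63) and 2.00% (0.780 to 5.03) in Control. Mrpl47 had 19.2% (14.4 to 25.2) and 9.93% (6.01 to 15.98) in Prmt5 KO, against 6.78% (3.48 to 12.8) in Control 1 and 0 of its reads in Control 2, which allows up to 3.85%, and its span overlaps Actl6a and Ndufb5. A gene can also be high in the first library alone: Mrps30 had 17.7% (15.1 to 20.7) and 0% (up to 2.05%) in Prmt5 KO and 2.13% (0.912 to 4.88) and 6.77% (4.27 to 10.6) in Control. Mrpl45, which ties the ribosome to the inner membrane, had 3.38% (2.33 to 4.87) and 2.65% (1.44 to 4.80) in Prmt5 KO and 4.34% (2.76 to 6.75) and 4.99% (3.29 to 7.505) in Control, with intervals that overlap.

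In 4 of the 59 genes of the intron test, unique intron reads were found in Prmt5 KO only. The least number of intron reads for this test is a sum over all libraries, so Prmt5 KO reads alone can meet it. Prmt5 KO 1 was also the most deeply sequenced library, which favours this pattern. Its frequency among all tested genes was not counted, so the pattern is not shown to be particular to the set. Dap3 had 218 and 15 intron reads in Prmt5 KO and 0 and 0 in Control, an intron-to-exon ratio at least 38.8-fold higher when a floor of 3 reads over the Control group is used. Against the same floor the bound was 51.0 for Prmt5 KO 1 alone and 8.71 for Prmt5 KO 2 alone. Its share was 7.84% (6.89 to 8.89) and 1.43% (0.869 to 2.35) in Prmt5 KO, and a count of 0 allows up to 0.369% and 0.305% in Control. Total intron reads of Dap3, which include reads that map elsewhere, were 230 and 19 in Prmt5 KO and 3 and 2 in Control, a ratio 24.8-fold higher and so under the bound from unique reads, and the gene shares 560 bases with Ash1l. Mrpl13, related to bacterial L13, had 50 and 17 intron reads in Prmt5 KO and 0 and 0 in Control, at least 17.9-fold higher by the same floor and 12.7 for Prmt5 KO 2 alone. Its span shares 341 bases with Mtbp. Mrpl13 and Mrps23 are named here after their values were seen, for completing the 7 genes at an unadjusted p under 0.05, with Dap3, Mrps18a, Mrpl12, Mrpl27 and Mrpl42. Mrps18a had 21 and 20 intron reads in Prmt5 KO and 0 and 0 in Control, at least 7.62-fold higher, but its total intron reads were 88 and 38 in Prmt5 KO and 1 and 5 in Control (11.5-fold), and its span shares 6876 bases with Rsph9. Mrps22, at 39 and 2 intron reads in Prmt5 KO and 0 and 0 in Control, was at least 6.12-fold higher over the group, which rests on the first library, since 2 reads are under the floor. Mrpl12 had 29 and 5 intron reads in Prmt5 KO and 1 and 0 in Control, and Mrps23 had 39 and 7 in Prmt5 KO and 2 and 0 in Control. The adjusted p was 0.717 for each of the 7 and 0.721 for Mrps22 (edgeR).

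Reads across exon-exon junctions, the counterpart of spliced RNA, differed little. Over the 78 genes they made up 57.2% and 56.9% of exon reads in Prmt5 KO and 58.2% and 57.7% in Control, a difference of -0.909 percentage points (two-sided exact permutation p = 0.333, the smallest possible). Over all genes the junction share was 54.8% and 56.1% in Prmt5 KO and 56.8% and 56.9% in Control. By gene, both Prmt5 KO values were under both Control values in 15 of 76 (19.7%, against 17.9% of 8166 genes) and above them in 6 (7.89%, against 12.2%). Mrpl17 and Mrpl2, which lie wholly inside another gene model, had a junction share of 100% in every library. In Mrpl33, almost wholly inside one, it was 99.7% to 100%. These genes are part of the sums and counts, but could show little or no difference.

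Other large gene families of protein synthesis and respiration had values of similar size. The 79 tested genes of the cytosolic ribosome had a median log2 fold change of -0.33 (65 negative) and the 78 tested nuclear genes of oxidative phosphorylation one of -0.26 (69 negative). Groups separated downwards in 2 cytosolic (2.53%) and 9 oxidative phosphorylation genes (11.5%), both under the 19.3% of all tested genes. In the mitochondrial ribosomal protein genes they did so in 24 (31.6%). Of the smaller lists described next, they did so in 41.2% of aminoacyl-tRNA synthetases and 44.4% of nuclear regulators. The share was 22.7% of assembly genes, 13.3% of translation factors, 12.5% of mitochondrial transcription genes and 0% of ribosomal proteins with other symbols. The median log2 intron change was 1.17 for cytosolic ribosomal and 1.79 for oxidative phosphorylation genes, on either side of the 1.29 of the set, and 1.09 over all tested genes. No test of these differences between families was made.

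The other genes of mitochondrial translation, taken from lists of ribosomal proteins with other symbols, translation factors, assembly factors, aminoacyl-tRNA synthetases and mitochondrial transcription, held 67 tested genes, of which 0 passed the exon test (median log2 fold change -0.12, 43 negative). Of the 58 in the intron test 0 passed (median 1.52, 47 or 81.0% positive), beside a median of 1.09 and 82.1% positive over all tested genes. At an unadjusted p under 0.05 (edgeR) there were 9, all higher in Prmt5 KO, where 6.74% of all tested genes were. The 17 aminoacyl-tRNA synthetases had a median exon log2 fold change of -0.41, with 13 negative. The median was -0.04 for 15 translation factors, -0.11 for 22 assembly genes, 0.14 for 8 genes of mitochondrial transcription and -0.18 for 5 ribosomal proteins with other symbols. A separate list of nuclear regulators had a median of -0.28 over 9 tested genes. Mtg1, a GTPase of large subunit assembly, was at 21.6 and 21.1 CPM in Prmt5 KO, against 39.1 and 41.0 in Control (log2 fold change -0.91 ± 0.41, adjusted p = 0.604, edgeR), and Rbfa, which matures the small subunit RNA, was at 65.8 and 80.0 CPM in Prmt5 KO, against 101 and 144 in Control (adjusted p = 0.592, edgeR). Myc, from the list of regulators, a transcription factor that also acts on ribosomal and mitochondrial genes, was at 130.1 and 116 CPM in Prmt5 KO, against 258 and 183 in Control (log2 fold change -0.84 ± 0.32, adjusted p = 0.495, edgeR). The groups did not overlap in these 3 genes, which were picked for a small exon p. They did overlap in Chchd1, Ptcd3 and Polg, picked in the same way. Of the 67 tested genes, both Prmt5 KO values were under both Control values in 15 (22.4%, against 19.3% of all genes). They were above both in 7 (10.4%, against 20.4%). Gfm2, which takes part in ribosome recycling, was at 88.1 and 103 CPM in Prmt5 KO, against 71.7 and 63.8 in Control, and Pars2, the prolyl-tRNA synthetase, at 21.2 and 47.2 CPM in Prmt5 KO and 10.04 and 18.1 in Control. Vars2, the valyl-tRNA synthetase, had lower values in Prmt5 KO, at 19.3 and 7.33 CPM in Prmt5 KO and 41.2 and 27.5 in Control, and none of these 3 passed the test (adjusted p = 0.753, 0.604 and 0.578, edgeR).

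The RNAs of the mitochondrial ribosome itself varied more within groups than between them. The table gives both no exon length, so they are given as gene reads for every 1000000 exon reads, after TMM scaling. The small subunit RNA mt-Rnr1 was at 276 and 608 in Prmt5 KO and 296 and 951 in Control, and the large subunit RNA mt-Rnr2 at 2142 and 4052 in Prmt5 KO and 1895 and 4031 in Control (two-sided exact permutation p = 0.667 for each). In both, the second library of each group was the higher one.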

How the data were processed

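RNA was extracted from sorted cells, turned into amplified cDNA (SMART-seq v4 Ultra Low Input) and read on the Ion Proton platform, per the labels' protocols. The authors deposited raw read counts per gene, exon, junction and intron, unique and total. Reads were single and trimmed, per the file headers. The submitters' processing notes name mm10 and edgeR. No aligner or gene annotation is recorded in the sources used here. RPKM, p-value and fold-change columns, also deposited by the authors, were not used, and 0 sample columns were left out for want of a sample.

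Unique exon reads were filtered with filterByExpr, scaled by TMM and put through edgeR 4.0.16 (quasi-likelihood, R 4.3.3) over all genes, with Benjamini-Hochberg adjustment at 0.05. Introns were tested as intron by group on unique intron and exon reads with library as a block, scaled by exon library size. DESeq2 1.42.0 and limma 3.58.1 were alternatives. The steps were tested on simulated data, with an outcome that is not given here. The spread of the simulated intron counts was fixed and not taken from these libraries. They therefore do not show how small a change the intron test could find here. Wilson intervals (95%) and floors of 3 counts cover counting error of reads only, and not variation between libraries. The cDNA was amplified and reads carry no molecular identifiers, so copies of 1 molecule may be counted more than once and the intervals may be too narrow.

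Named genes were those past 0.05 in either test, the 8 highest per kb, the 6 most positive and 6 most negative exon fold changes and the 8 largest gains and 4 largest falls in intron share among genes whose groups did not overlap, and 8 genes of known role. For the other lists they were those past 0.05 or the 2 with the smallest exon p, of which the text gives a part. Members and lists were chosen with earlier results of these data known. The result of 1 marker list is not reported here.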

Additional observations from a re-analysis of the deposited data

How the results depend on the processing

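No gene of the set passed the adjusted threshold in any of the 13 alternative exon fits or the 8 alternative intron fits (smallest adjusted p 0.0548 and 0.447). The number of all genes called on exon reads, 1 in edgeR as reported, was 3 on unique gene reads, 25 with at least 20 reads in every library, 224 without a filter, 171 with DESeq2 and 12 with limma-voom, and 1 to 57 when a library was left out. Those counts differ by over 1.5 times, and the cause was not tested. The median exon log2 fold change of the set ran between -0.56 and -0.0067 when a library was left out, and the median intron change between 0.54 and 2.34, with 0 to 1 genes of all called on introns. The intron median of the set was 0.39 with intron columns scaled on their own. Over the exon alternatives, 41 of the 76 genes changed sign in at least 1, and 25 of the 59 in the intron alternatives. Scaling by library size alone put the median of all genes at 0.08 and that of the set at -0.16. Summed over the set, the exon difference ran between -1611 and -160 of every 1000000 exon reads when a library was left out, and the intron difference between 0.669 and 3.605 percentage points. Alternatives chosen after seeing the data gave an exon difference of -1200.5 with TMM scaling, an intron difference of 2.50 percentage points and a median intron change of 1.19 for genes without an overlapping model. The labels tie no animal, day or batch to a replicate number, and with 2 pairs of libraries, whose deviations correlated at 0.20 over all genes and 0.17 over the set, whether the numbers pair them was not settled. With the replicate block, 237 genes were called on exon reads and 0 of the set (median -0.23, 12 genes at an unadjusted p under 0.05), and 0 on introns (median 1.24). Depth limits the intron shares: in Control 2, 32 of the 78 genes had 0 unique intron reads, among them those inside another gene model.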
